A study of Mus musculus with 19 samples.

Results

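The genes described here encode the proteins of the cytosolic ribosome, and their mRNAs were followed in the livers of 19 male mice kept on a normal or a high-fat diet with or without the indoline derivative AN1284. Members were chosen by name, as protein-coding genes called Rpl or Rps with a number and an optional a or x, together with Rplp0, Rplp1, Rplp2 and Rpsa, if the deposited table gave them a normalized value. This gave 76 of the 20433 genes with such a value, 46 of the large (60S) subunit and 30 of the small (40S) subunit. The rule uses no measured value beyond the presence of a normalized one, but it was set with earlier results of these data known. Fau, Rps3a1 and Rack1, which also belong to the cytosolic ribosome, are not members by this rule and are given separately.

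The mice were C57BL/6JOlaHsd, 4 weeks old at the start, and were fed for 4 months. The high-fat diet of the labels is the modified Western diet (WD) of the study, and the normal diet (ND) was its control. In the last 8 weeks a micro-osmotic pump under the skin gave saline or AN1284, so every animal, the controls included, carried a pump. The groups were WD saline (n = 3), WD AN1284 1 mg/kg/day (n = 4), WD AN1284 5 mg/kg/day (n = 3), ND saline (n = 3), ND AN1284 1 mg/kg/day (n = 3) and ND AN1284 5 mg/kg/day (n = 3), with 1 polyadenylated RNA library per liver. Each library was made from whole liver, so a smaller number of cells of a type and less of an RNA per cell cannot be told apart.

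The ribosome reads mRNA on its small subunit and joins amino acids on its large subunit. Most of its proteins are present in equal numbers. Ribosomal protein mRNAs are among the most abundant of a dividing or protein-secreting cell such as the hepatocyte. Most of these mRNAs start with a C followed by a run of pyrimidines, the 5′ terminal oligopyrimidine (TOP) motif, through which the kinase mTORC1 and the RNA-binding protein LARP1 set their translation and stability.

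Windows of 30 bases around the annotated start are shown for members that were furthest apart in the diet comparison below, because the TOP motif is the feature this family is known to share. Sequences are from the RefSeq promoter table (GRCm38.p6), in which 56 of the 76 members were found. Each window holds 15 bases before the annotated first base and 15 bases from it on, 5′ to 3′ on the gene's own strand. Capitals mark a C followed by at least 4 bases that are each C or T and beginning within 5 bases of the annotated first base. The first 4 were among the members that fell most on the WD, and the last 3 among those that changed least.
Rpl28 (chr7:4792950-4792979, plus strand): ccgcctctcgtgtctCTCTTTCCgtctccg
Rpl27a (chr7:109519180-109519209, plus strand): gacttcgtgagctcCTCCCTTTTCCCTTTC
Rps26 (chr10:128626492-128626521, minus strand): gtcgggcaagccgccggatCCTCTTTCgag
Rpl35a (chr16:33056467-33056496, plus strand): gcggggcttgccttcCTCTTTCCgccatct
Rpl5 (chr5:107900513-107900542, plus strand): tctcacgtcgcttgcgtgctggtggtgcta
Rplp0 (chr5:115559452-115559481, plus strand): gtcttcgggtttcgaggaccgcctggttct
Rps4x (chrX:102189377-102189406, minus strand): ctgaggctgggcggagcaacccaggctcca
Rpl35a has 3 annotated starts in the table and only the one shown has a run, while the other members shown have 1 start each. Counting a gene where any of its starts has one, such a run was found in 27 of the 56 members (48.2%), against 21.2% of the 27025 genes of the promoter table and 17 of 68 mitochondrial ribosomal protein genes (25%). By window, 29 of 66 windows of members (43.9%) and 18.3% of all windows had a run, since 8 members have several starts. A run starting exactly at the annotated first base was found in 13 members (23.2%), against 3.01% of all genes. Members with a run changed by a median log2 of −0.63 between WD saline and ND saline livers, and the 29 without one by −0.54. By the authors' size factors 22 of the 27 with a run fell, and 21 of the 29 without. In that comparison 61 of all 76 members fell, and 25% of all genes tested. With scaling by library totals 14 members fell. A link between the run and the fall was not tested. The windows shown do not stand for all members. Rpl15 (−0.33) and Rps15a (−0.29) have a run, and Rps28 (−0.88) and Rpsa (−0.77) have none. A window without a run says only that these letters are not next to an annotated start.

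The member mRNAs together took 0.887 to 1.37% of the 23326800 to 32596067 counted reads of a liver. Mean normalized counts ran from 13300 for Rpl4, which lies at the exit tunnel of the large subunit, down to 18.6 for Rps10. Per kilobase of annotated exons the highest was Rplp1, a protein of the stalk that binds elongation factors, at 15580 normalized counts. The 3 lowest members by count were Rps10, Rpl24 (189) and Rpl13a (356), and these were also the members with the largest parts of their exons overlapped by another gene on the same strand (20.6, 47.0 and 35.4%). Ribosomal protein genes have many processed copies in the genome. Between 0% and 89.2% (Rpl35) of the 75-base windows of a member recur, on either strand, in a transcript of another annotated gene. Overlapping genes count here as well as copies. For Rpl35, genes on the opposite strand overlap 66.2% of the exons. Whether reads that fit several places were counted is not given in the sources used here, so the levels of such members carry this doubt. Pseudogenes that carry the name of a ribosomal protein gene (289, of which 158 had reads) held 0.0369 to 0.0667% as many reads as the members. Copies under other names were not counted.

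Some livers stood apart. ND saline replicate 1 had the highest level of the members, with a geometric mean of 4883 normalized counts against 3402 and 3531 in the other ND saline livers. The median coefficient of variation of a member was 7.18% in WD saline and 22.9% in ND saline livers. Size factors were 1.03 to 1.27 in WD saline and 0.759 to 0.791 in ND saline livers, while the 100 most counted other genes took 39.5 to 40.2% of reads in WD saline and 45.7 to 48.2% in ND saline livers. The scaling therefore weighs on every comparison with either saline group. Values scaled by library totals are given beside most of those by the authors' size factors. Between WD saline and ND saline, totals scaling raised the median log2 change of all 14743 genes tested to 0.44, against 0.01 with the size factors. For AN1284 against saline on the WD it lowered this median to −0.23 at either dose, against 0.007 (1 mg/kg/day) and −0.006 (5 mg/kg/day).

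The diet was compared in livers given saline, and ribosomal protein mRNAs were lower on the WD. By the authors' size factors 61 of 76 members fell, none rose (0 also by limma voom and 0 at an unadjusted p under 0.05, where 30.7% of all genes were higher), and the median log2 change was −0.58, with single members between −1.07 (Rps10) and −0.11 (Rpl3). Among all genes tested 25% fell and 28.1% rose. The geometric mean of the members was 2474, 2793 and 2472 normalized counts in WD saline livers, against 4883, 3402 and 3531 in ND saline livers, with no overlap. Single members did not overlap between the groups, and were lower in WD saline, in 62 of 76 cases, against 29.4% of all genes. Both subunits moved, with 38 of 46 large-subunit members (median −0.59) and 23 of 30 small-subunit members (median −0.57) lower. Without ND saline replicate 1, 41 members were lower and the median was −0.42.

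The fall depended on the scale. Scaled by library totals, 14 members were lower and 1 (Rpl5) higher, against 9.16% lower and 51.4% higher of all genes, and the median was −0.15. As a plain share of counted reads the members took 1.02, 1.09 and 0.987% in WD saline livers, against 1.37, 1.03 and 1.08% in ND saline livers, and these ranges overlapped. Without the 100 most counted other genes in the denominator the share was 1.63 to 1.83% in WD saline and 1.90 to 2.65% in ND saline livers. Rescaling shifts all genes of a comparison by nearly the same amount. The members' median minus that of all genes tested therefore had to stay alike (−0.59 log2) and does not test the fall. The plot of the members by liver shows the level and the share side by side.

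**Figure D1:**
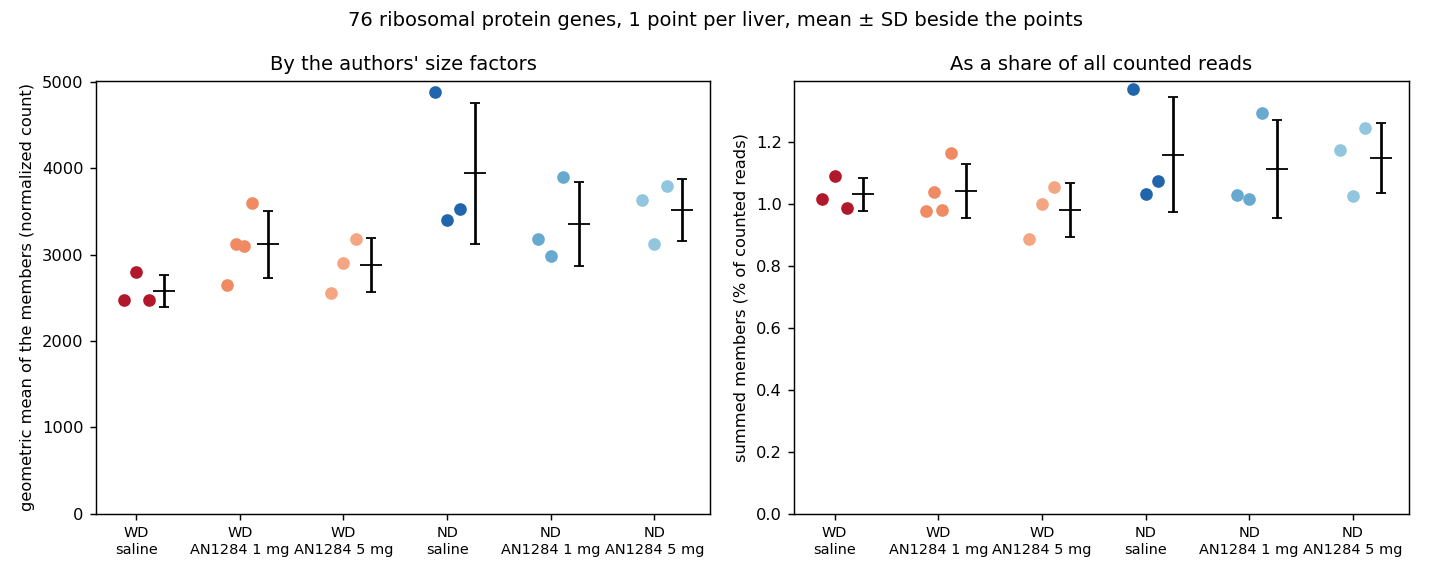
Level of the 76 ribosomal protein mRNAs in each of 19 livers (1 point per liver, mean ± SD beside the points), on the left as the geometric mean of the members in normalized counts and on the right as the percentage of counted reads. The WD saline livers (2472 to 2793) lie below the ND saline livers (3402 to 4883) on the left, and the groups overlap on the right.

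The clearest falls were in Rpl36, Rpl28, Rps26, Rpl27a and Rpl35a. Rpl36, a large-subunit protein, had 1851, 2278 and 1805 normalized counts in WD saline livers, against 5600, 3402 and 3428 in ND saline livers, a log2 change of −1.03 ± 0.20 (SE, limma, adjusted p = 0.000378). The highest WD saline liver stayed below the lowest ND saline liver. Rpl28, a large-subunit protein with no bacterial counterpart, had 3222, 3802 and 3153 normalized counts in WD saline livers and 8180, 4931 and 8066 in ND saline livers (−1.02 ± 0.18, SE, adjusted p = 0.000153). Rps26, which lies at the mRNA exit channel of the small subunit, had 2187, 2523 and 2219 normalized counts in WD saline and 5137, 3384 and 5252 in ND saline livers (−0.97 ± 0.16, SE, adjusted p = 6.52e-05). The groups were separate for each of these genes, and ND saline replicate 2 was the lowest of its group for all 3. Rpl27a and Rpl35a, both of the large subunit, changed by −0.93 ± 0.15 and −0.93 ± 0.15 (SE). These 5 members were also lower with totals scaling (−0.60 for Rpl36 and −0.49 for Rpl35a). Rps10 had the largest change (−1.07 ± 0.40, SE, adjusted p = 0.0313) on 12.6, 14.8 and 7.1 normalized counts in WD saline and 39.6, 15.8 and 22.8 in ND saline livers, and with totals scaling it did not pass (adjusted p = 0.163).

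At the other end stood Rpl3, Rpl5, Rplp0, Rps19 and Rps4x, none of which passed by the size factors. Rpl3, next to the peptidyl transferase centre, had 4259, 4273 and 4235 normalized counts in WD saline livers and 5122, 5043 and 3757 in ND saline livers (−0.11 ± 0.15, SE). Rpl5, which carries 5S rRNA and can bind the p53 regulator Mdm2, had 3754, 4256 and 4026 in WD saline livers and 4683, 4536 and 4054 in ND saline livers (−0.14 ± 0.10, SE). The groups overlapped for both. Rpl11, the partner of Rpl5 in the 5S particle, had 3463, 3953 and 3459 normalized counts in WD saline and 7278, 4639 and 5464 in ND saline livers (−0.65 ± 0.16, SE, adjusted p = 0.00193). With totals scaling Rpl3 (0.32), Rpl5 (0.29), Rplp0 (0.26), Rps19 (0.26) and Rps4x (0.22) had positive changes, of which that of Rpl5 passed (adjusted p = 0.0191).

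**Figure D2:**
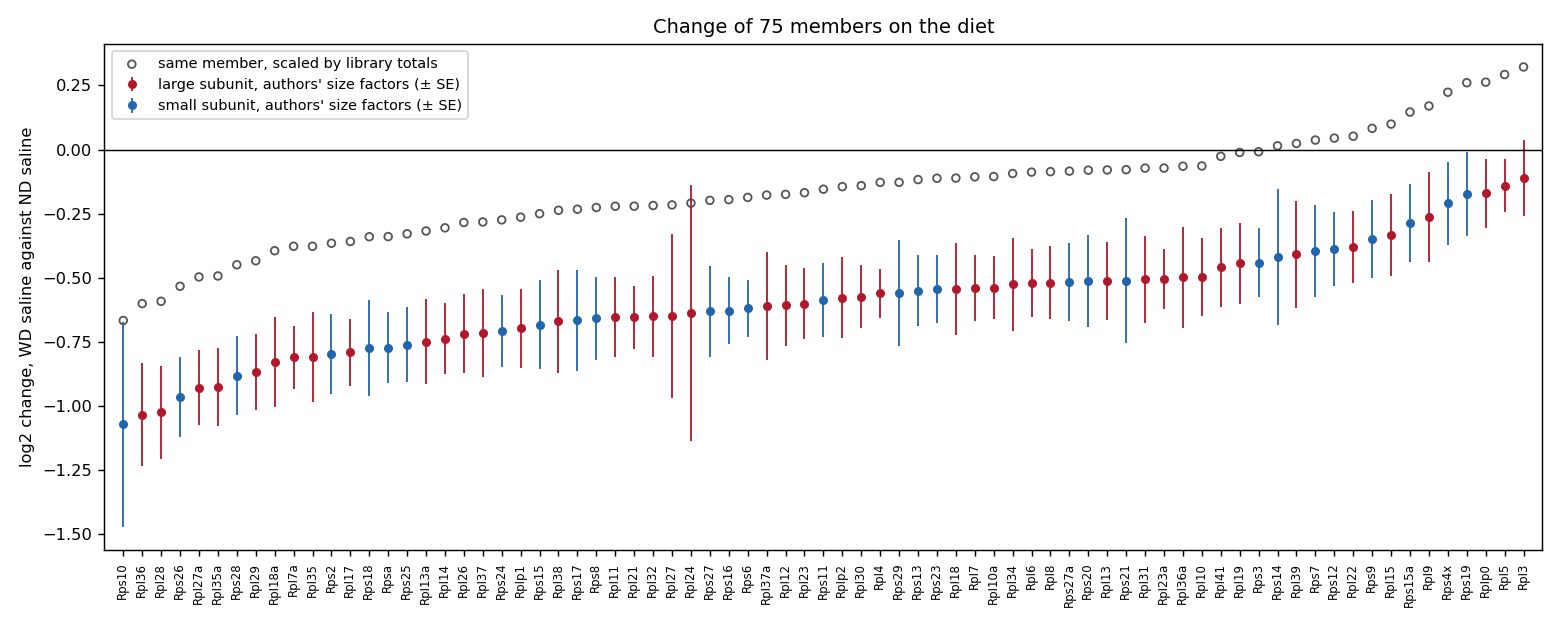
Log2 change of 75 of the 76 members between WD saline and ND saline livers (n = 3 each), sorted from Rps10 (−1.07) to Rpl3 (−0.11). Filled points use the authors' size factors, red for the large and blue for the small subunit, with SE bars, and open circles show the same member scaled by library totals, where the median is −0.15.

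The 3 stalk proteins differed among themselves. Rplp0, the base of the stalk, had 7370, 7674 and 6830 normalized counts in WD saline livers, against 9310, 8584 and 6885 in ND saline livers (−0.17 ± 0.13, SE, adjusted p = 0.297). Rplp1, which binds Rplp0 as a dimer with Rplp2, had 5787, 6841 and 5548 in WD saline and 11494, 8859 and 9182 in ND saline livers (−0.70 ± 0.15, SE, adjusted p = 0.00107). Rplp2 changed by −0.58 ± 0.16 (SE, adjusted p = 0.00542). Rplp0 overlapped between the groups, and Rplp1 and Rplp2 did not.

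Among the small-subunit members with roles outside peptide bond formation, Rps6, the substrate of S6 kinase, had 2760, 3057 and 2805 normalized counts in WD saline livers and 5008, 3859 and 4442 in ND saline livers (−0.62 ± 0.11, SE, adjusted p = 0.000176). Rpsa, also known as the laminin receptor, changed by −0.77 ± 0.14 (SE). Rps27a, made as a fusion with ubiquitin, changed by −0.52 ± 0.15 (SE), and Rps3, which lines the mRNA entry channel, by −0.44 ± 0.13 (SE). All 4 passed by the size factors, and Rpsa alone of them with totals scaling (adjusted p = 0.0276). Rps19, mutated in Diamond-Blackfan anaemia in humans, had 2284, 2337 and 2183 normalized counts in WD saline and 3330, 2255 and 2220 in ND saline livers (−0.17 ± 0.16, SE). The groups overlapped.

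Of the other large-subunit members followed by role, Rpl10, which joins the subunit last, changed by −0.50, Rpl10a by −0.54, Rpl13a by −0.75, Rpl22 by −0.38, Rpl36a by −0.50 and Rpl41, the shortest member, by −0.46, and these passed by the size factors. Rpl39, which lies in the exit tunnel, changed by −0.41 and did not pass (adjusted p = 0.11). Rps27 changed by −0.63. With totals scaling none of these 8 passed, and Rpl22 and Rpl39 had positive changes (0.052 and 0.024). Coding length was weakly related to the change, with medians of −0.61 in the 25 shortest members, −0.64 in the middle 25 and −0.52 in the 26 longest. The Spearman correlation was 0.221 over the 76 members and 0.219 over 13310 genes, so the relation was not particular to the members.

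Ratios of a member to the geometric mean of all members within a liver do not depend on the scaling of the library. When the fit was repeated on these ratios, an alternative chosen after the data were seen, 4 members were below the rest of the members in WD saline against ND saline livers (Rpl36 by −0.44, Rpl28 by −0.43, Rpl27a by −0.34 and Rpl35a by −0.33 log2). Another 6 were above it, Rpl3 by 0.48, Rpl5 by 0.45, Rplp0 by 0.42, Rps19 by 0.42, Rps4x by 0.38 and Rpl9 by 0.33. Of all genes tested 5.05% were lower and 53.1% higher on this scale, so the adjusted p-values (0.00421 to 0.0391) control error over all genes and not among members. Leaving out 1 library at a time left 4 to 8 members above and 2 to 7 below. The ratio of Rps19 was −0.11, −0.26 and −0.18 log2 in WD saline livers, against −0.55, −0.59 and −0.67 in ND saline livers. Over all groups it was −0.37 to −0.11 in the 10 WD livers and −0.67 to −0.39 in the 9 ND livers, and Rps19 was the only member whose ratio did not overlap between the diets, where 3.81% of all genes were higher and 0.258% lower without overlap. The ratio of Rpl5 was 0.60, 0.61 and 0.70 in WD saline and −0.06, 0.42 and 0.20 in ND saline livers. The change of the members was weakly related to the GC content of their longest transcript (r = −0.34 over 76 members, which share all libraries), against −0.05 over 13310 genes, and the part of GC content in the ratios was not tested.

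**Figure D3:**
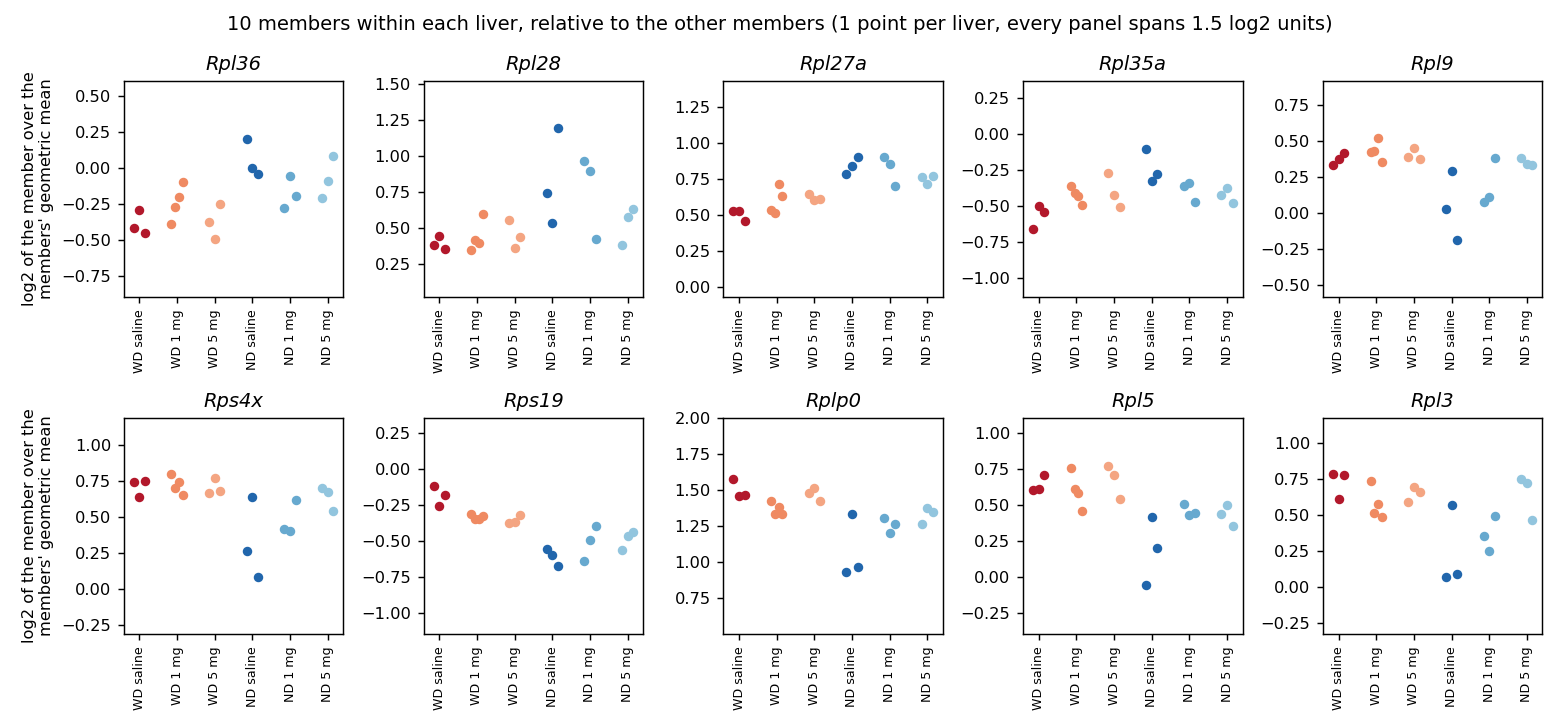
Log2 ratio of 10 members to the geometric mean of all 76 members in each liver (1 point per liver), for the members whose ratio passed between WD saline and ND saline livers. Every panel spans 1.5 log2 units. In WD saline livers Rpl36, Rpl28, Rpl27a and Rpl35a have lower mean ratios than with ND saline, and Rpl3, Rpl5, Rplp0, Rps19, Rps4x and Rpl9 higher ones.

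The ratios also varied between livers of the same group. Over the 19 livers 54.9% of their variance lay on 1 principal component, on which ND saline replicate 3 (2.55), ND AN1284 1 mg/kg/day replicate 1 (1.89) and replicate 2 (1.76) stood apart from the other 16 livers (0.27 or below). In these 3 livers Rpl24, Rpl27, Rps14 and Rps21 were low and Rpl35, Rpl28, Rps26 and Rpl29 high. These 8 had the largest weights on the component in either direction, apart from Rps10 (0.26). Their pattern in these livers therefore follows from the choice. Rpl24, which helps to bridge the subunits, had 104 normalized counts in ND saline replicate 3, against 371 and 178 in the other ND saline livers, while Rpl35 had 4293, against 3718 and 2401. Rpl24 also had 93.0, 99.0 and 334 normalized counts in the ND AN1284 1 mg/kg/day livers. It was low as well in replicate 1 of WD AN1284 5 mg/kg/day (83.1 normalized counts), where Rpl35 was not high (1988). The weights of the members on this component correlated with GC content at r = 0.22 over 76 members, and mitochondrially encoded genes took 8.45, 6.00 and 5.80% of reads in the 3 livers, against 3.01 to 6.62% in the others. Without ND saline replicate 3, 68 members were lower in WD saline against ND saline livers, and Rpl36, Rpl27a, Rpl35a, Rpl3, Rpl5, Rplp0 and Rps19 still passed on the ratio.

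**Figure D4:**
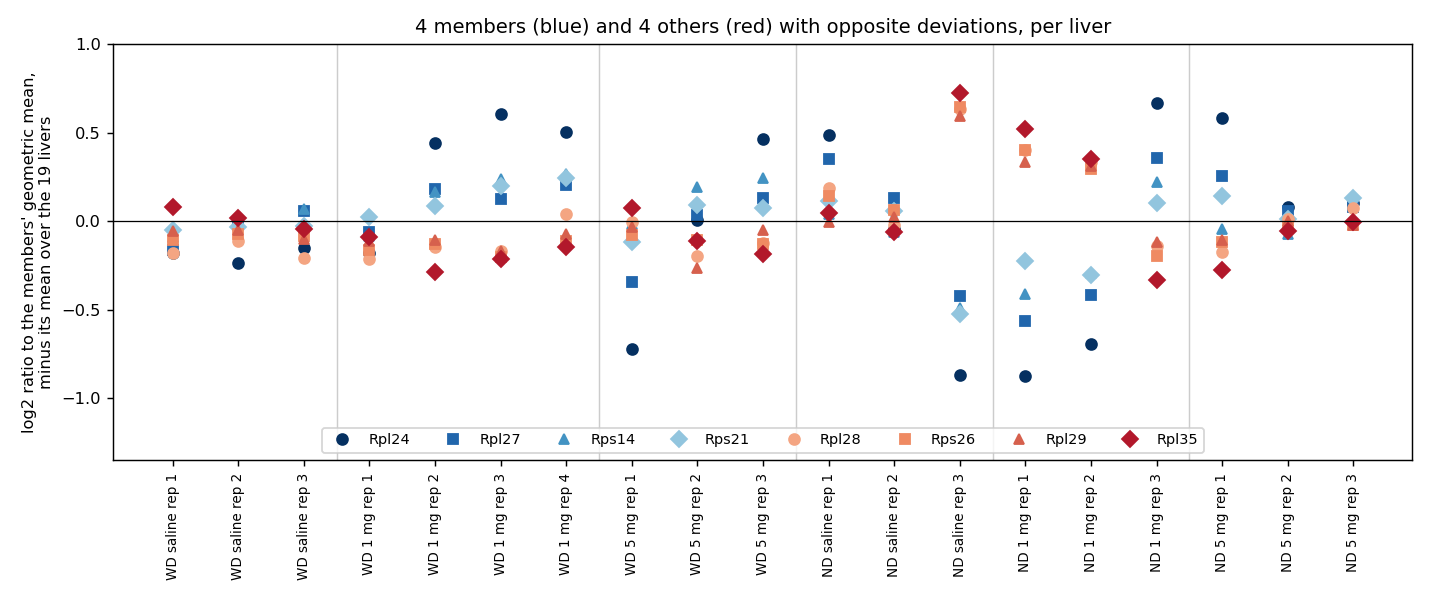
Log2 ratio of 8 members to the members' geometric mean, minus the member's mean over the 19 livers, with livers in order of group. Rpl24, Rpl27, Rps14 and Rps21 (blue) are low and Rpl28, Rps26, Rpl29 and Rpl35 (red) high in ND saline replicate 3 and in replicates 1 and 2 of ND AN1284 1 mg/kg/day. The 8 members have large weights on the component that set these livers apart.

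AN1284 1 mg/kg/day was compared with saline on the WD to see what the drug changed in livers on that diet. All 76 members had a positive change, with a median of 0.26. The members share all libraries and their scaling, so counts of signs, here and below, are not separate results. By the adjusted p 2 rose, Rpl22 and Rpl35a, against 10.3% of all genes, while no member fell (12.6%). Rpl22, which is dispensable for translation in mice and shapes T-cell development, had 2434, 2782, 3118 and 3245 normalized counts in WD AN1284 1 mg/kg/day livers, against 2016, 2421 and 2210 in WD saline livers (0.38 ± 0.13, SE, adjusted p = 0.0435). Rpl35a had 2056, 2352, 2296 and 2558 in WD AN1284 1 mg/kg/day livers and 1561, 1968 and 1696 in WD saline livers (0.41 ± 0.14, SE, adjusted p = 0.0411). Both were without overlap. In all, 15 members were higher without overlap, against 15% of all genes. Rpl24 had the largest change (0.80) at 126, 229, 255 and 276 normalized counts in WD AN1284 1 mg/kg/day livers and 117, 128 and 120 in WD saline livers, which overlapped, and it did not pass (adjusted p = 0.241). The smallest was that of Rps12 (0.025), followed by Rpl35 (0.065) and Rpl41 (0.092). With totals scaling no member passed (4.88% of all genes rose and 27.5% fell), the median was 0.020, and none passed when replicate 1 or 3 of WD saline, replicate 2, 3 or 4 of the treated group, or replicate 2 of the WD group at the higher dose was left out. With 1 ND library left out the count was 1 (ND AN1284 5 mg/kg/day replicate 1) to 7 (ND saline replicate 1). Without WD AN1284 1 mg/kg/day replicate 1, whose geometric mean was 2648 against 3100 to 3599 in the other 3, 12 members were higher.

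On the WD no member passed at 5 mg/kg/day (limma, and 0 by limma voom on the raw counts), with 1 higher at an unadjusted p under 0.05 (11.7% of all genes). The median was 0.17 by the size factors and −0.059 with totals scaling, and 5.51% of all genes rose and 7.03% fell by the size factors. The log2 changes of Rps14 (0.29), Rps27 (0.31), Rps12 (−0.079), Rps19 (−0.014) and Rpl12 (0.0052) were the others furthest from the median. The geometric mean of the members was 2555, 2898 and 3185 normalized counts in WD AN1284 5 mg/kg/day livers, against 2474, 2793 and 2472 in WD saline livers, and the groups overlapped. Members higher without overlap numbered 8, against 16.2% of all genes. Rpl35a had the largest change (0.32), with 2112, 2156 and 2243 normalized counts at 5 mg/kg/day and 1561, 1968 and 1696 in WD saline livers. Between the doses on the WD, 5 against 1 mg/kg/day, the median was −0.11 and no member passed (0% of all genes, 0 by limma voom, 0 at an unadjusted p under 0.05, where 2.96% of all genes were higher and 2.3% lower).

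On the ND the members had mostly negative changes with AN1284 by the size factors, and none passed by limma or by limma voom. With totals scaling the medians were −0.080 at 1 mg/kg/day and −0.006 at 5 mg/kg/day, and no member passed. By the size factors the median at 1 mg/kg/day was −0.24, and 74 of 76 members had a negative change. At an unadjusted p under 0.05, 7 were lower, as were 9.17% of all genes. At the adjusted threshold 1.74% of all genes fell and 2.9% rose. Furthest below the median were Rpl36 (−0.45), Rpl24 (−0.38) and Rpl27 (−0.45). The geometric mean was 3175, 2982 and 3902 normalized counts in ND AN1284 1 mg/kg/day livers, against 4883, 3402 and 3531 in ND saline livers. With the higher dose the median was −0.16, with 64 negative changes and 14 members lower at an unadjusted p under 0.05, as were 12.6% of all genes. At the adjusted threshold 3.89% of all genes fell and 6.27% rose. The geometric mean was 3633, 3117 and 3799 in ND AN1284 5 mg/kg/day livers, and overlapped the ND saline livers. Rpl35, at 2211, 2217 and 2792 normalized counts in ND AN1284 5 mg/kg/day livers and 3718, 2401 and 4293 in ND saline livers, changed by −0.49. Without ND saline replicate 2, the lowest of its group, 6 members were lower at 1 mg/kg/day and 14 at 5 mg/kg/day. Between the doses on the ND the median was 0.08 and no member passed (0.0203% of all genes rose and 0.0203% fell, 0 members by limma voom), with 1 higher at an unadjusted p under 0.05 (6.78% of all genes).

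The diet was also compared in livers given AN1284, with changes taken from livers other than ND saline and a variance estimated over all 6 groups. At 1 mg/kg/day the median change between WD and ND livers was −0.09, and 2 members fell, Rpl10a (−0.36 ± 0.12, SE, adjusted p = 0.0442) and Rpl7a (−0.35 ± 0.11, SE, adjusted p = 0.0499), against 4.92% of all genes, and none rose (8.05%). Rpl10a had 1604, 1816, 1790 and 2005 normalized counts in WD AN1284 1 mg/kg/day livers and 2091, 2195 and 2704 in ND AN1284 1 mg/kg/day livers. Rpl7a had 5701, 6576, 6291 and 7081 in WD and 8577, 7648 and 8294 in ND livers at this dose. With totals scaling neither passed (3.21% of all genes fell and 7.98% rose). None passed when only the groups compared were fitted, and with 1 library left out the count was 0 to 8. At 5 mg/kg/day the median was −0.29, and −0.24 with totals scaling, where no member passed. By the size factors all 76 changes were negative, and no member passed by limma or limma voom (1.37% of all genes fell and 1.7% rose). At an unadjusted p under 0.05, 23 members were lower, as were 7.39% of all genes. Members lower without overlap numbered 29, against 12.2% of all genes, and 9 at 1 mg/kg/day, against 10.2%. Over all 10 WD and 9 ND livers Rpl4, Rpl7a and Rpl10a were lower without overlap by the size factors, against 1.36% of all genes. No member was higher (1.4%). As a share of counted reads Rpl10a overlapped. It had 2113 of 28741704 reads in WD saline replicate 2 and 1637 of 23326800 in ND saline replicate 2. Rpl4 had 10434 to 13032 normalized counts in the WD livers and 13452 to 17000 in the ND livers.

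**Figure D5:**
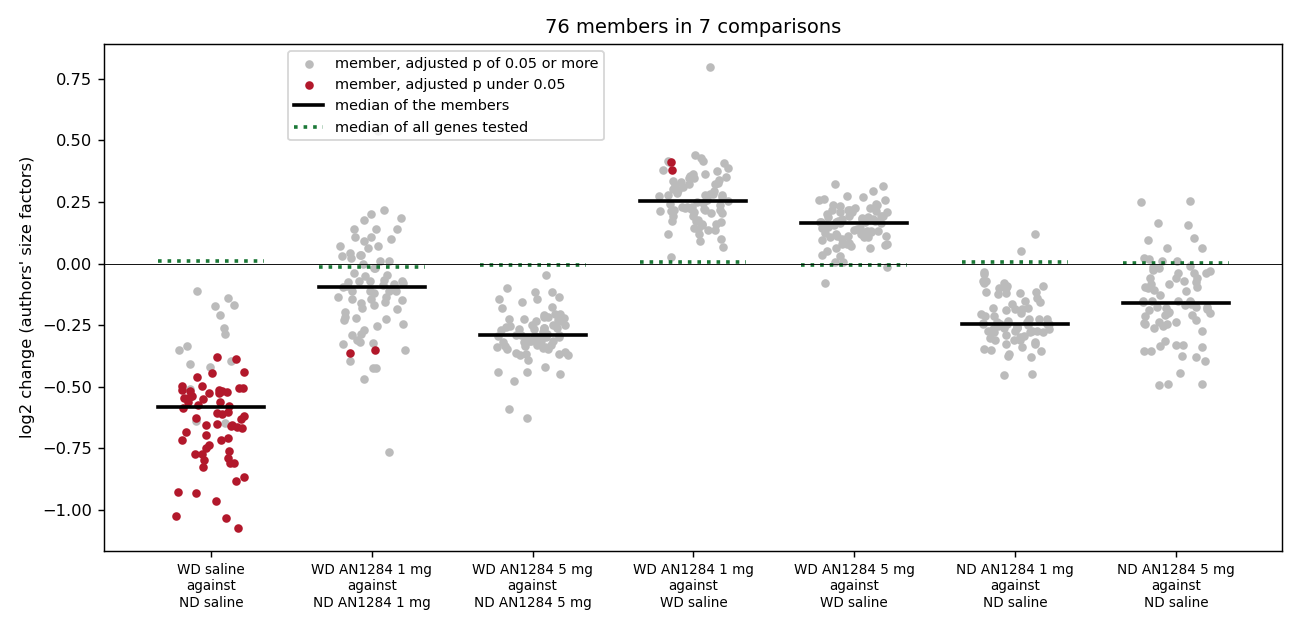
Log2 change of the 76 members (grey, or red where adjusted p is under 0.05) in 7 comparisons by the authors' size factors, with the median of the members (black) and of all genes tested (green, dotted). The members' medians are −0.58, −0.09 and −0.29 for WD against ND with saline, the low and the high dose of AN1284, 0.26 and 0.17 for the low and the high dose on the WD, and −0.24 and −0.16 on the ND.

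The effect of AN1284 was compared between the diets by an interaction term, the change on the WD minus the change on the ND. At 1 mg/kg/day 8 members had a higher change on the WD, Rpl36, Rpl35a, Rps18, Rps25, Rpl26, Rplp1, Rpl27a and Rpl14, against 9.39% of all genes higher and 11.3% lower, and the median was 0.47. For Rps25, a small-subunit protein needed by some viral internal ribosome entry sites, the change was 0.38 on the WD and −0.31 on the ND, a difference of 0.69 ± 0.20 (SE, adjusted p = 0.0211). For the higher dose Rpl35a and Rpl7a passed, against 8.54% of all genes higher and 11.6% lower, and the median was 0.28. With totals scaling none passed at either dose (of all genes 3.4% were higher and 32.8% lower at the low dose, 3.03% and 30.8% at the high dose), with medians of 0.069 and −0.10, and without ND saline replicate 1 the counts were 1 and 0. Without ND saline replicate 2 they were 30 and 16, and over all single libraries left out they ran from 1 to 30 and from 0 to 16.

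Other genes of the translation machinery gave the following values in WD saline against ND saline livers. By the size factors 25% of all genes fell and 28.1% rose there. Of ribosomal genes outside the name rule, Fau (−0.77, adjusted p = 0.00349, made as a fusion with a ubiquitin-like protein) fell, while Rps3a1 (−0.41, adjusted p = 0.0582) and Rack1 (−0.21, adjusted p = 0.317) did not pass, and with totals scaling none of them passed. Mitochondrial ribosomal protein genes, which build the separate ribosome of the mitochondrion, had 57 of 76 lower and none higher with a median of −0.54, close to the median of the cytosolic members. On the WD 17 of these 76 rose with AN1284 at the lower dose and 4 at the higher (medians 0.28 and 0.22). Of all genes 10.3% and 5.51% rose. Among the cytosolic members 2 and none did (medians 0.26 and 0.17), and the difference between the 2 sets was not tested. All 8 hosts of small nucleolar RNAs, transcripts whose introns carry them, were lower on the WD, with a median of −0.91, and Gas5 had a mean of 871 ± 83.1 normalized counts in WD saline and 1656 ± 321 in ND saline livers (SD, n = 3 each). Elongation and initiation factors had 15 of 33 lower and 3 higher with a median of −0.22, among them Eef1d (−0.78) and Eif5a (−0.62) lower and Eif6, which keeps free 60S subunits apart from 40S, higher (0.83). Genes of ribosome assembly had 17 of 45 lower and 1 higher (median −0.19), with Fbl, the rRNA methylase fibrillarin, at −0.73. Of 18 genes of mTORC1 and TOP control 7 fell and 4 rose (median −0.05), with Larp1 at −0.58 and Mtor at 1.13. Of 10 other TOP mRNAs 4 fell and 1 rose, with a median of −0.23. Among these 10, Eef1a1, Eef2, Pabpc1, Npm1 and Rack1 also belong to sets given above, so the sets are not separate. Under totals scaling 51.4% of all genes were higher and 9.16% lower. The calls then were 5 higher and 11 lower for the mitochondrial set, and 15 higher and 1 lower for the factors. Genes of assembly had 16 higher and 2 lower, and the small nucleolar RNA hosts none higher and 4 lower. For mTORC1 and TOP control 11 were higher and none lower (median 0.38). The other TOP mRNAs had 3 higher and none lower (median 0.21).

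Cell type markers and heat shock genes were followed in the same comparison, where 25% of all genes fell and 28.1% rose. Between WD saline and ND saline livers 10 of 12 hepatocyte genes were lower (summed level 1859842 to 2161026 normalized counts in WD saline and 4027047 to 4261223 in ND saline livers). Of 8 heat shock genes 7 were lower, and 3 with totals scaling (9.16% of all genes). Their summed level set the ND saline livers (52695 to 59542 normalized counts) apart from every other group, with 25156 to 31547 in WD saline livers and 24000 to 29707 in ND livers given AN1284. All 8 were lower in both comparisons of AN1284 with saline on the ND, where 1.74 and 3.89% of all genes fell. At 5 mg/kg/day 4 were higher in WD against ND livers (1.7% of all genes). Macrophage genes were higher in 9 of 10 cases, stellate cell genes in 6 of 7 and endothelial genes in 5 of 6. Cholangiocyte genes were higher in 3 of 6 cases. Of 9 lymphocyte genes tested (of 10) 3 were higher, near the share of all genes (28.1%). The summed macrophage level was 13629 to 26965 normalized counts in WD saline and 4748 to 7568 in ND saline livers. That of the stellate genes was 16890 to 23766 in WD saline and 5513 to 8342 in ND saline livers, and that of the endothelial genes 4308 to 6816 in WD saline and 2606 to 2716 in ND saline livers. Cholangiocyte genes summed to 7183 to 12576 in WD saline and 1919 to 3069 in ND saline livers, and lymphocyte genes to 932 to 1490 in WD saline and 260 to 362 in ND saline livers. The most counted gene of a list weighs heavily on its sum. Mean normalized counts over the livers were 1805000 for Alb (hepatocyte), 3010 for Spp1 (cholangiocyte) and 684 for Ptprc (lymphocyte). Next in these lists were Apoa1 (264000), Sox9 (416) and Nkg7 (41.5). No marker of these lists that was tested was at 0 in any library. With AN1284 1 mg/kg/day on the WD 11 of 12 hepatocyte genes were higher than with saline (2858099 to 3212608 normalized counts). Of stellate genes 6 of 7 were lower (5073 to 9178) and of cholangiocyte genes 6 of 6 (1145 to 1888). In this comparison 10.3% of all genes rose and 12.6% fell. The part of these shifts in the levels of the ribosomal proteins was not tested.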

How the data were processed

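Liver RNA from 19 mice was sequenced as stranded polyadenylated RNA in 2 runs. Per the labels and the study's methods, the authors used cutadapt 1.18 for trimming, TopHat2 2.1.1 for alignment against the GRCm38 build, HTSeq 0.6.0 for counts per gene and DESeq2 1.22.1 for normalization. The strand setting and the handling of reads with several positions are not given in the sources used here. The deposited table holds, per liver, a raw read count and a normalized count (the raw count divided by a size factor of the library). The table also holds the authors' own comparisons, which were not used.

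Because the raw columns hold a placeholder in place of a count for 6252 genes, count models (edgeR, DESeq2) were not run, and log2(normalized count + 1) was fitted with limma 3.58.1 (R 4.3.3, trend and robust variance) in 1 model with 6 groups. The 14743 genes with a normalized count of at least 10 in at least 3 livers were tested, all 76 members among them. A gene rose or fell where the Benjamini-Hochberg adjusted p over these genes was under 0.05. Fold changes are on the log2(value + 1) scale, which understates low genes. Each library is 1 mouse, so p-values measure the spread between mice. Counted reads per liver were 23326800 to 32596067. Named members were, in the saline diet comparison and the 4 AN1284 comparisons, up to 5 with the largest rise and 5 with the largest fall past the threshold, the 3 farthest above and below the members' median, and 20 chosen by role; others are named because a count of 5 or fewer or a pattern singled them out after their values were seen. The members, roles and lists were chosen with earlier results of these data known. Scripts were tested on simulated data. Replicate numbers did not pair the samples (same-numbered livers correlated at −0.27 to 0.23 in 45 pairs). Some single genes are not reported here, and 1 of them, a member, is left out of the plot of changes by member while counting in every total.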

Additional observations from a re-analysis of the deposited data

Results flagged for a closer look

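For 10 results the change with AN1284 differed between the diets by the interaction term (limma, adjusted p under 0.05), the change on the WD minus the change on the ND in log2 units. At 1 mg/kg/day this difference was 0.87 for Rpl36, 0.79 for Rpl35a, 0.78 for Rps18, 0.69 for Rps25, 0.65 for Rpl26, 0.62 for Rplp1, 0.61 for Rpl27a and 0.59 for Rpl14. At 5 mg/kg/day it was 0.66 for Rpl35a and 0.52 for Rpl7a. These are 8 and 2 of 76 members, where 9.39% and 8.54% of all genes were higher. Without ND saline replicate 1 the counts were 1 and 0, and with totals scaling none of the 10 passed. No member among the 34 values examined in the 4 livers of WD AN1284 1 mg/kg/day had a liver far from the other 3.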

How the results depend on the processing

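Scaling decided most calls. With totals, WD saline against ND saline had 14 members lower and 1 higher (median −0.15), and with totals that leave out the members and the 100 most counted genes 33 lower (median −0.34). With totals the changes of Rpl22 (0.052), Rpl3 (0.32), Rpl39 (0.024), Rpl5 (0.29), Rplp0 (0.26), Rps12 (0.045), Rps14 (0.014), Rps19 (0.26) and Rps4x (0.22) turned positive, as did Rpl3 (0.13), Rpl5 (0.097), Rplp0 (0.068), Rps19 (0.066) and Rps4x (0.028) with the reduced totals, and Rps19 without ND saline replicate 1 (0.019, in a range of −0.27 to 0.019 with 1 library left out). With 1 library left out, 41 to 68 were lower (median −0.69 to −0.42), 4 to 8 lay above the members' mean and 2 to 7 below.

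For AN1284 1 mg/kg/day on the WD, 0 members were higher with totals (median 0.020), upper quartile, reduced totals, the plain limma variance or the replicate block, 1 with no filter, 8 with only the groups compared, and 0 to 12 with 1 library left out (median 0.18 to 0.33). At 5 mg/kg/day the totals median was −0.059 (leaving out 1 library, 0.08 to 0.24). On the ND 0 to 6 members were lower at 1 mg/kg/day (median −0.34 to −0.07) and 0 to 14 at 5 mg/kg/day (median −0.26 to 0.02, 0 to 2 above the members' mean) with 1 library left out, and 1 at 5 mg/kg/day with the stricter filter. Between the doses the medians were then 0.00256 to 0.20 on the ND and −0.18 to −0.03 on the WD.

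For WD against ND at 1 mg/kg/day 0 members were lower with totals, upper quartile, reduced totals, no filter or only the groups compared, 1 with a pseudocount of 0.5 or 10 or the plain variance, 6 with the replicate block, and 0 to 8 with 1 library left out (median −0.18 to 0.01, 0 to 2 below the members' mean). At 5 mg/kg/day 0 to 1 were lower (median −0.38 to −0.21). The interaction at 1 mg/kg/day had 0 members higher with totals (median 0.069), 1 with reduced totals (median 0.26), 3 with the plain variance or only the groups compared, 2 with the replicate block, and 1 to 30 with 1 library left out (median 0.32 to 0.60, 0 to 1 below the members' mean). At 5 mg/kg/day 0 were higher with totals (median −0.10), upper quartile, reduced totals (median 0.065) or the plain variance, 1 with no filter or only the groups compared, 4 with the stricter filter, and 0 to 16 with 1 library left out (median 0.12 to 0.39, 0 to 1 below the members' mean). The causes of these shifts were not tested. DESeq2 was not run. Same-numbered livers did not correlate, so the block is no paired analysis by design. With 3 or 4 mice per group, changes of the size of the ND differences were not separable from the spread between mice.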
